A study of Gallus gallus with 144 samples.

Results

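MYBPC1 and MYBPC3, genes of the myosin binding protein C family, were followed in a map of transcription start sites of the chicken. They were taken by name from the promoter labels of a deposited peak list on the GRCg6a build. Both were found, among 10437 labelled genes, and they held 10 of the 24969 labelled promoter peaks. The measurements considered are the number, place, width and spacing of those peaks, and the unlabelled peaks on either strand up to 50000 bp downstream.

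Myosin binding protein C is a rod of immunoglobulin-like and fibronectin-like domains that lies across the thick filament of striated muscle, where it binds myosin and actin and restrains contraction. In mammals MYBPC1 encodes the slow skeletal form, MYBPC2 the fast skeletal form and MYBPC3 the cardiac form, and human variants of MYBPC3 are a leading cause of hypertrophic cardiomyopathy. CAGE, cap analysis of gene expression, is designed to sequence the capped 5′ ends of RNA, so a peak marks bases where ends read as capped were found. Whether each unlabelled peak is a capped end or a start of transcription was not tested. Decomposition-based peak identification, the method named for this list, splits a region of start sites into its component peaks, so that a single broad start region may appear as several.

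The study sampled brain, breast, heart, kidney, leg and liver from 24 chickens, of which 12 were of a fast-growing and 12 of a slow-growing type. Each bird gave all 6 tissues, for 144 libraries in 12 groups of 12. The labels name no strain, age, sex or treatment. The whole series has 1 list of 153662 peaks, taken here as pooled over all libraries. It has no value for any library and no replicates, so neither the growth types nor the tissues could be compared. A peak near MYBPC1 or MYBPC3 therefore shows that ends read as capped were found, not in which tissue, in how many birds or at what level. Markers of the tissues carried promoter labels in 6 of 6 cases for brain, 5 of 5 for heart and 6 of 6 for kidney, beside 57.0% of all 14357 protein-coding genes with a symbol. The counts were 3 of 5 for skeletal muscle, near that share, without TNNI2 and MYLPF, and 2 of 6 for liver, without ALB, APOA1, FGB and TTR. NPPB and CKM had no entry in the gene table used and were not counted.

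The promoter of MYBPC3 was a dense row of 8 small peaks, whereas that of MYBPC1 was a single broader peak followed by an isolated base. MYBPC3 had its peaks on the plus strand of chromosome 5, between 23217878 and 23218000. All 8 lay within 123 bp, and they covered 61 of those bases (49.6%). In the direction of transcription, the first peak (23217878 to 23217882) was 5 bp wide, the second (23217890 to 23217906) 17 bp and the third (23217912 to 23217916) 5 bp. The fourth (23217935 to 23217937) was 3 bp wide, the fifth (23217951 to 23217957) 7 bp and the sixth (23217966 to 23217974) 9 bp. The seventh (23217976 to 23217986) was 11 bp wide and the eighth (23217997 to 23218000) 4 bp. No single peak dominated by width, and none was 1 bp wide.

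The MYBPC3 peaks lay close together, at gaps within the usual range for neighbouring promoter peaks. From one peak to the next, 7, 5, 18, 13, 8, 1 and 10 bases were left uncovered, with a median of 8, against a median of 11 (quartiles 5 and 29) over 14510 neighbouring pairs of promoter peaks of the same gene. The list also gives a representative position inside each peak, and these positions lay 0, 23, 36, 58, 76, 93, 103 and 122 bp from the first base. The 7 steps between them averaged 17.4 ± 4.65 bp (SD over the steps of this 1 gene), with a median of 18 and a range of 10 to 23 bp. The median step over all pairs was 23 bp (quartiles 15 and 47).

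MYBPC1 lay on the minus strand of chromosome 1. Its upstream peak (55669350 to 55669382) was 33 bp wide, with the representative position at base 9 counted from the upstream end. Its downstream peak was the single base 55669206. A gap of 143 uncovered bases separated them, so that MYBPC1 counted as having separate promoters, that is, peaks over 100 bp apart, and MYBPC3 did not. Peaks over 100 bp apart were found for 17.9% of the 10430 genes whose promoters lay on a single sequence and strand. Of the 2873 genes with exactly 2 promoter peaks, 365 (12.7%) had a gap of at least 143 bases, and 266 (9.26%) included a peak of 1 bp. Among the 434 of them with a gap over 100 bases, 109 included a peak of 1 bp. The second promoter peak of MYBPC1 is thus a single position, whose height is unknown.

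**Figure D1:**
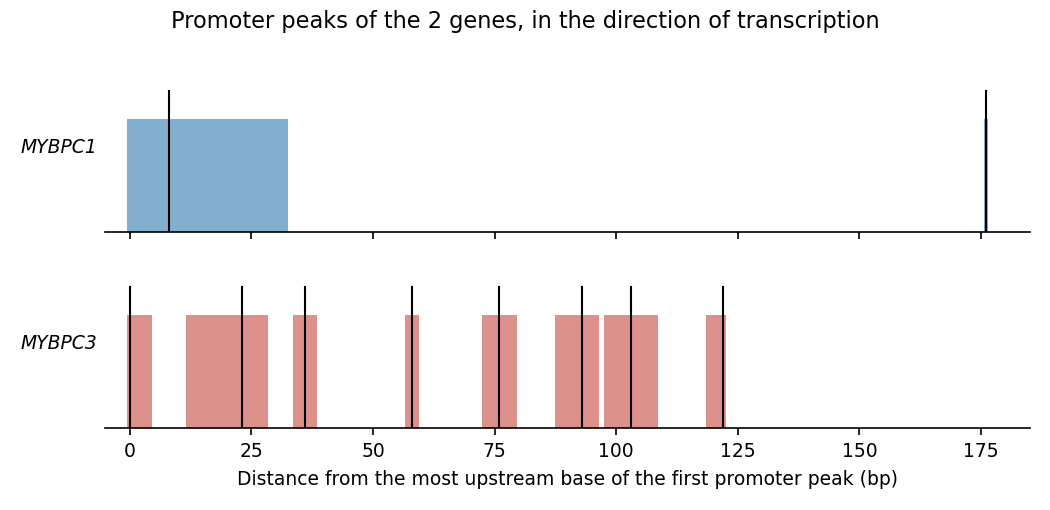
Promoter peaks of MYBPC1 (upper) and MYBPC3 (lower), drawn to scale in the direction of transcription, with distance in bp from the most upstream base of the first peak on the horizontal axis. Boxes are peaks and black lines their representative positions; MYBPC3 has 8 boxes within 123 bp, and MYBPC1 a 33 bp box and a single base 143 uncovered bases further on.

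In number of promoter peaks MYBPC3 stood near the upper end of all genes and MYBPC1 in the middle. At least 8 promoter peaks were found for 151 of the 10430 genes (1.45%), MYBPC3 among them, and 85 had more. The median over all genes was 2, the value of MYBPC1. This rank rests on counting each peak of the list: with peaks at gaps of up to 20 bp merged, MYBPC3 had 1 promoter peak, as did 70.6% of genes, and MYBPC1 kept 2. Most genes with so many peaks spread them widely, with a median distance of 1282 bp from the first to the last base among the 151. MYBPC3, at 123 bp, had the shortest distance of the 151. The next were RBL2, a relative of the retinoblastoma protein, at 126 bp, and ST8SIA5, a sialyltransferase, at 137 bp, each with 8 peaks. Only 27 of the 151, MYBPC3 included, had no gap over 100 bp between neighbouring peaks. The widest peak of MYBPC3, at 17 bp, was below the median of 30 bp for the widest peak in that group. The limit of 8 was set at the count of MYBPC3 itself, so these ranks describe the gene and are not a test.

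**Figure D2:**
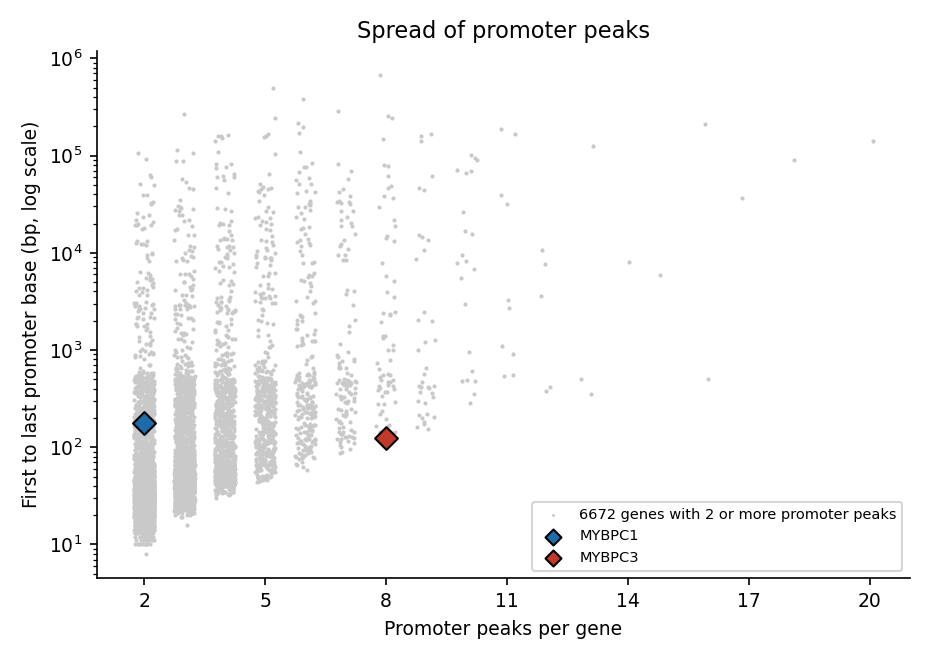
Number of promoter peaks (horizontal axis, points spread sideways to limit overlap) against the distance from the first to the last promoter base in bp (vertical axis, log scale) for 6672 genes with at least 2 promoter peaks. MYBPC3 lies at the lower edge of the genes with 8 peaks, at 123 bp, and MYBPC1 at 177 bp among the genes with 2.

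Downstream of MYBPC3, unlabelled peaks were many and lay almost entirely on its own strand. From 500 to 50000 bp past the first promoter base there were 28 on the same strand and 1 on the opposite strand. The same-strand share was 96.6%, with a 95% Wilson interval of 82.8 to 99.4 that covers counting over peaks only. Peaks of a single gene are not independent replicates. Over all 10430 genes such windows held 54923 same-strand and 49241 opposite-strand peaks, a share of 52.7%, with medians of 4 and 4 per gene. A same-strand count of 28 or more was found for 126 genes (1.21%). The opposite-strand count of 1 was below the median, and 1877 genes (18.0%) had 1 or none.

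The downstream peaks of MYBPC3 were unevenly spread. No unlabelled peak of either strand lay from 100 to 500 bp past the first promoter base, and the first on the same strand came at 9075 bp, near the median of 9634 bp over all genes. Up to 10000 bp there was 1 same-strand peak, from there to 20000 bp there were 5, and from 20000 to 30000 bp 14. The next windows of 10000 bp held 3 and 5. Beyond the limit of 50000 bp the run went on, with 9 more same-strand peaks to 60000 bp, the last of them at 58091 bp. It was followed by an empty stretch of 14667 bp, and 3 further same-strand peaks lay between 72758 and 85913 bp. No second opposite-strand peak appeared up to 100000 bp.

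Within the 50000 bp window, 14 of the 28 same-strand peaks of MYBPC3 lay in 5 groups whose members were at most 100 bases apart, and 14 stood alone. The largest group held 4 peaks from 29167 to 29303 bp downstream (23247043 to 23247181). Groups of 3 lay at 24709 to 24806 bp and at 25424 to 25512 bp. The 28 peaks had a median width of 11 bp and a range of 1 to 47 bp, and 3 of them (10.7%) were 1 bp wide. Over all 128693 unlabelled peaks the median was 7 bp and 27.2% were 1 bp wide. The single opposite-strand peak (23235207 to 23235225) was 19 bp wide and lay 12 bases beyond a same-strand peak of 37 bp (23235158 to 23235194).

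Downstream of MYBPC1 the same-strand count was above the median of all genes, but the nearest peak on that strand was far away. The window held 7 same-strand and 2 opposite-strand unlabelled peaks, a same-strand share of 77.8% (95% Wilson interval 45.3 to 93.7, which includes the share of all genes). This interval too covers counting over peaks only, which are not independent replicates, so it is not a test. A same-strand count of 7 or more was found for 2683 genes (25.7%). The nearest unlabelled peak downstream was on the opposite strand, at 1684 bp. The first on the same strand came only at 31328 bp, and 82.4% of genes had a nearer one. The 7 same-strand peaks lay at 31328, 33602, 39960, 41594, 44092, 44510 and 48708 bp, with no 2 within 100 bases of each other. They were narrow, with a median of 2 bp, and 2 of them were single bases. With the window ended at 20000 bp, MYBPC1 was left with 0 same-strand and 1 opposite-strand peaks.

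**Figure D3:**
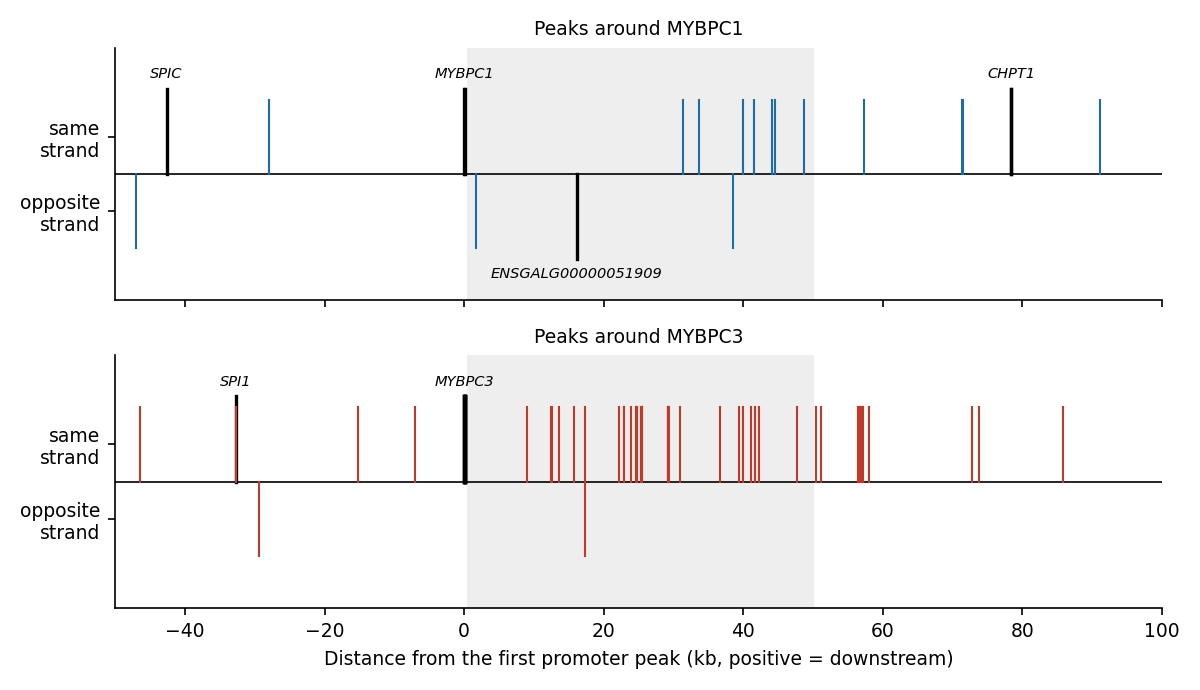
Peaks from 50 kb upstream to 100 kb downstream of MYBPC1 (upper) and MYBPC3 (lower), with distance in kb from the first promoter peak on the horizontal axis. Ticks above the line are peaks on the strand of the gene and ticks below it peaks on the opposite strand; coloured ticks are unlabelled, black ticks are labelled promoters with their gene names, and grey marks the window from 500 to 50000 bp, which holds 28 and 1 unlabelled peaks for MYBPC3 and 7 and 2 for MYBPC1.

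Upstream windows of the same length held 5 same-strand and 1 opposite-strand unlabelled peaks for MYBPC3, and 1 and 1 for MYBPC1. The medians over all genes were 4 and 3, so the same-strand count of MYBPC3 was near the median. Of the 5 upstream peaks of MYBPC3, those at 32717 and 32700 bp lay beside the labelled promoter of SPI1 at 32754 bp. The others lay at 7047, 15267 and 46516 bp. On its own strand MYBPC3 thus had 28 unlabelled peaks downstream against 5 upstream, and MYBPC1 7 against 1.

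Both genes had an ETS family gene as their nearest labelled neighbour upstream. For MYBPC3 it was SPI1, which encodes the blood cell transcription factor PU.1, with 1 promoter peak (23185124 to 23185144) 32754 bp upstream on the same strand. For MYBPC1 it was SPIC, which encodes the related factor Spi-C, with 1 promoter peak (55712033 to 55712036) 42654 bp upstream on the same strand. The RefSeq gene table of the GRCg7b assembly, used for names, order and overlaps of genes only, also placed SPI1 and SPIC next to MYBPC3 and MYBPC1 among protein-coding genes. On the downstream side the nearest labelled promoter for MYBPC3 was that of MADD, which encodes a regulator of Rab proteins, on the opposite strand at 122443 bp. No labelled promoter of another gene thus lay inside the 50000 bp window of MYBPC3. In that table the span of SLC39A13, a zinc transporter gene, overlapped MYBPC3. Its labelled promoter in the peak list lay 64984 bp upstream on the opposite strand, pointing away from MYBPC3. Whether the genes overlap on the GRCg6a build was not tested. For MYBPC1, the promoter of ENSGALG00000051909, a gene known here by identifier only, lay 16130 bp downstream on the opposite strand. That of CHPT1, a choline phosphotransferase, lay 78392 bp downstream on the same strand. All 7 same-strand peaks of the MYBPC1 window lay between the promoter of ENSGALG00000051909 and that of CHPT1.

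The rest of the family differed again. MYBPHL, which encodes a shorter relative and carries MYBPH as an older symbol in the table, had a single promoter peak of 441 bp on the minus strand of chromosome 26 (1020208 to 1020648). Of the 24969 promoter peaks 13 were wider, against 1416 wider than the broadest peak of MYBPC1 and 5109 wider than that of MYBPC3. Downstream of MYBPHL lay 8 same-strand and 10 opposite-strand unlabelled peaks, a same-strand share of 44.4% (95% Wilson interval 24.6 to 66.3). MYBPC2, the fast skeletal gene, carried no label under that symbol. In the GRCg7b table MYBPC2 lay on chromosome 31 beside FUZ, which also carried no label. Its span there overlapped several other entries, most of them named only by LOC identifiers, and no gene was placed before it. The list held 86 labelled genes on sequences named chromosome 31, but whether the MYBPC2 locus itself is covered was not tested. A promoter labelled under an Ensembl identifier would not have been matched to MYBPC2, nor to any other gene described here as without a label.

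MYBPC3 had more promoter peaks in the list than any other labelled sarcomere gene, while 14 of those genes had more same-strand peaks downstream. With peaks at gaps of up to 20 bp merged it had 1, and 21 of the 47 genes compared had more. Of 65 genes listed for the thick filament, thin filament and Z-disc with a current symbol, 47 carried a promoter label (72.3%), beside the 57.0% of all protein-coding genes. None of the 47 had 8 promoter peaks. The highest count was 5, in MYOM2, which encodes the M-band protein myomesin 2, and in the tropomyosin genes TPM1 and TPM3, and the median was 2. A same-strand excess downstream was common, with 42 of the 47 having more same-strand than opposite-strand peaks, beside 44.8% of all labelled genes. Another 3 of the 47 had fewer, beside 43.5% of all. The medians over the 47 were 17 same-strand and 5 opposite-strand peaks. Among the 47 are fast myosin genes of chromosome 18 whose windows overlap, so the 47 are not separate cases. By same-strand count 36 of the 47 exceeded MYBPC1. By opposite-strand count 39 exceeded MYBPC3, and 35 exceeded MYBPC1.

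Genes listed for the thick filament, to which the protein binds, and for the M-band were labelled in 19 of 27 cases. Besides structural proteins, that list holds kinases, ubiquitin ligases, a methyltransferase and a chaperone. Of the 19 labelled genes, 18 had more same-strand than opposite-strand peaks downstream and 1 had fewer. MYOM2 had 8 same-strand and 2 opposite-strand peaks, close to the 7 and 2 of MYBPC1. MYL1, the essential light chain of fast muscle, had 3 promoter peaks with 36 and 11 downstream, and MYL3, the light chain of slow and ventricular muscle, 3 with 14 and 4. MYH1D, a fast myosin heavy chain gene, had 2 with 24 and 3. MYL2, MYL4, MYLK3 and MYLPF had no label. The highest same-strand count, 136, belonged to the fast myosin gene MYH1E. Windows of neighbouring myosin genes overlap and share peaks, so their counts are not separate.

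Thin filament genes were labelled in 14 of 17 cases, and all 14 had more same-strand than opposite-strand peaks downstream. TPM1 had 37 and 17, and TPM3 20 and 5. LMOD2 and LMOD3, leiomodins of the pointed filament end, had 4 promoter peaks each, with 8 and 0 and with 17 and 6 downstream. NEB, TMOD1 and TNNI2 had no label. Z-disc genes were labelled in 14 of 21 cases, of which 10 had more same-strand peaks and 2 fewer. PDLIM5, a Z-disc scaffold, had 4 promoter peaks with 13 and 2 downstream, and MYOZ2, which encodes calsarcin 1, had 3 with 9 and 2. The actin capping genes CAPZB and CAPZA2 had 3 and 2 promoter peaks, with 0 and 5 and with 1 and 1 downstream. FLNC, MYOT, MYOZ1 and MYOZ3 had no label. The labelled thin filament genes had medians of 28.5 same-strand and 8.5 opposite-strand peaks, and the labelled Z-disc genes 5 and 2.

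**Figure D4:**
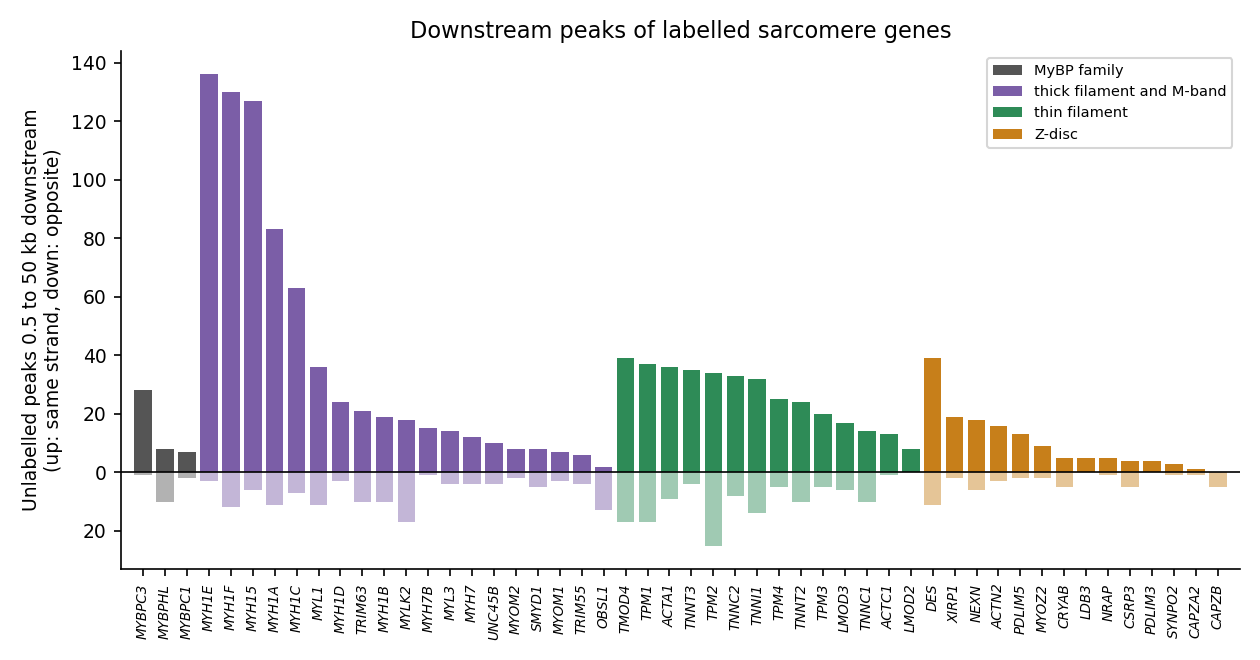
Unlabelled peaks from 500 to 50000 bp downstream of each labelled sarcomere gene, as counts, with same-strand peaks drawn up and opposite-strand peaks drawn down. MYBPC3 has 28 and 1, MYBPC1 7 and 2 and MYBPHL 8 and 10, and the bars of the fast myosin genes share peaks because their windows overlap.

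Few genes with as many downstream peaks as MYBPC3 had them so far to one side. Windows with at least 29 unlabelled downstream peaks were found for 427 genes, and their median same-strand share was 61.1%. In 145 of them fewer than 50% of the peaks were on the same strand. A share as high as that of MYBPC3 was reached by 7 of the 427, MYBPC3 included. Both limits were set at the values of MYBPC3 itself, so this rank describes the gene and is not a test. The other 6, listed because they passed this limit, were ENSGALG00000051776 (140 same-strand and 3 opposite-strand peaks), MYH1E (136 and 3), gga-mir-7474 (108 and 2), FETUB, a fetuin gene of the liver (41 and 1), AHCYL1, a regulator of inositol trisphosphate receptors (40 and 1), and CRIP2, a LIM domain gene (28 and 1). ENSGALG00000051776 and gga-mir-7474 both lay on chromosome 7, and whether their windows share peaks was not tested. Of the 638 genes with 9 downstream peaks, as in MYBPC1, 101 had a same-strand share at least as high as that gene, again with limits set at the gene itself. Across the 10430 genes Spearman's rho between promoter peaks and same-strand downstream peaks was -0.012, a description over genes that share libraries and neighbours. Among the 151 genes with at least 8 promoter peaks, the median same-strand count was 4, and 3 had more than the 28 of MYBPC3.

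**Figure D5:**
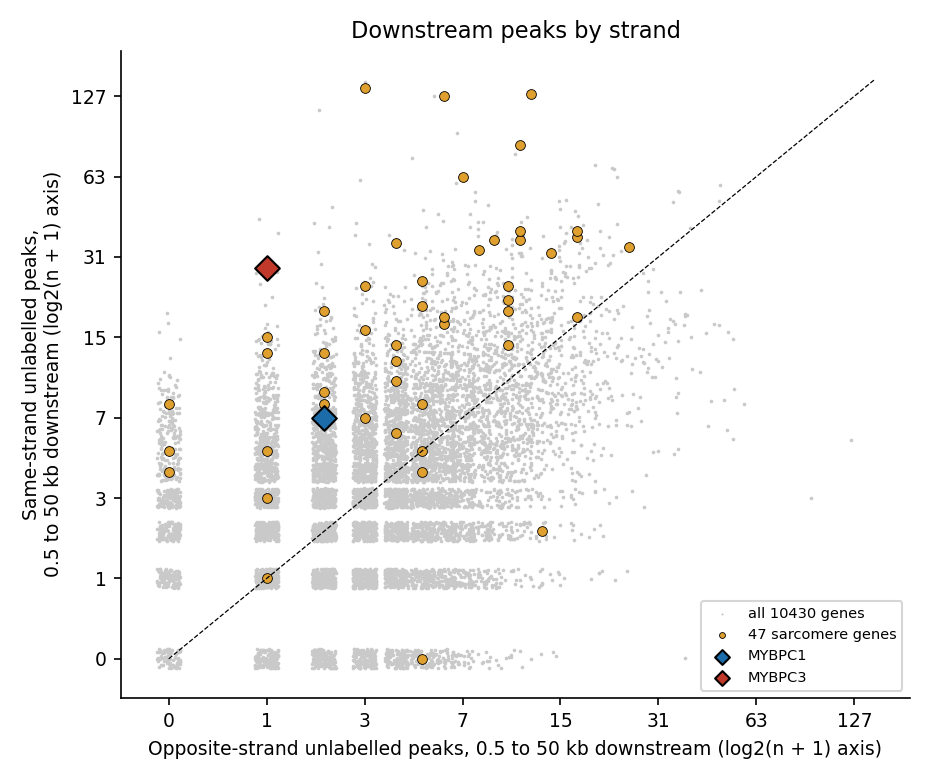
Opposite-strand (horizontal axis) against same-strand (vertical axis) unlabelled peaks from 500 to 50000 bp downstream of 10430 labelled genes, both as log2(count + 1), with grey points shifted slightly to limit overlap and a dashed line of equal counts. MYBPC3 lies at 1 and 28 and MYBPC1 at 2 and 7, both above the line, as are 42 of the 47 other sarcomere genes, in orange.

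The genes most like each member were sought by 4 measures, namely promoter peaks, the distance from first to last promoter base, and same-strand and opposite-strand downstream peaks. Likeness was the sum of the percentile differences over these measures among all 10430 genes. MYBPC1 had near matches, with CDR2L at a sum of 0.297, PHF13 at 1.43 and U8, a small nucleolar RNA gene, at 1.71, each with 2 promoter peaks and with 7 and 2 peaks downstream. MYBPC3 had none so near. Its closest were AHCYL1 at 13.4, with 5 promoter peaks over 231 bp and 40 and 1 peaks downstream, SEPTIN3 at 15.8, with 6 over 214 bp and 12 and 1, and RUSC2 at 16.4, with 7 over 225 bp and 11 and 1.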

How the data were processed

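CAGE libraries were made by the authors with unique molecular identifiers, per the labels' protocols. The build was GRCg6a, and UMI-tools 1.1.4 and STAR 2.7.9a are listed, per the submitters' processing notes. No source used here gives the settings of the peak caller, the threshold of the list or the rule behind its promoter labels. The deposited list has a score column and 1 further column that are 1 in every row, so peaks could not be ranked and depth is unknown. Starts, deposited as counted from 0, are printed 1-based.

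Distances run from the most upstream base of a gene's first promoter peak to the representative position of another peak, whose meaning was read from the values. Distances to neighbouring genes run to the most upstream base of their own first promoter peak. Gaps are the bases between peaks. Of 10437 labelled genes, 7 whose labels fell on several sequences or strands took no part in comparisons. Chromosome names came from the RefSeq table of GRCg7b by majority (99.9%, 99.8% and 99.3% of matched genes for chromosomes 1, 5 and 26), and no coordinates from it are printed. No genome of GRCg6a was used here, so exon or intron positions and sequences are not reported.

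Members and lists were chosen with earlier results of these data known, so counts stand beside those of all genes and no test was run. Named were the members, their family and labelled neighbours, from each list the 4 members richest in promoter peaks and up to 4 unlabelled members, and the 3 genes nearest in pattern to each member. RBL2, ST8SIA5, SLC39A13, FUZ and the 6 one-sided genes, MYH1E among them, were added after their values were seen. The window counter was tested on simulated data and returned the planted counts for 200 of 200 genes. Shares have 95% Wilson intervals, which cover counting over peaks only. Python 3.11.15, numpy 2.4.6, pandas 2.3.3, scipy 1.17.1 and matplotlib 3.10.9 were used. Merging in all genes was added after the data were seen. The alternatives were other windows, merged peaks, peaks of 1 bp left out, other distances between promoters and older symbols.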

Additional observations from a re-analysis of the deposited data

How the results depend on the processing

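Of 29 alternatives, 23 left a share within the interval of its main value or a count within 1.5 times it. Some of the 23 could not differ, so their number does not measure robustness. No other labelled same-strand promoter lay within 50000 bp downstream of either gene, so ending the window there changed nothing. MYBPC3 had no promoter peak of 1 bp and no gap over 18 bp. For MYBPC1 the interval was wide (45.3 to 93.7), so most shares would fall inside it. The upstream window, counted among the 23, is a different region, and for MYBPC1 it held an even split (50% of 2 peaks). The same-strand share of MYBPC3 stayed between 83.3% and 97.6% in its 9, the lowest being the upstream window. That of MYBPC1 turned to 0% with the window ended at 20000 bp and at the next labelled promoter on either strand, each leaving 1 opposite-strand peak. Without peaks of 1 bp MYBPC1 had 1 promoter peak, and with peaks over 500 bp apart counted as separate it had 1 promoter. Merging peaks within 20 bp turned the 8 promoter peaks of MYBPC3 into 1. Of 77 listed genes, which include the family and the kinases named below, 54 were labelled, beside 57.0% of all protein-coding genes with a symbol. Of the 54, 31 had at least 2 promoter peaks, beside 6672 of the 10430 labelled genes (64.0%). The window to 100000 bp was added after the data were seen. No paired analysis was possible because the list holds no value for any library. Depth and peak height are unknown, so how many transcripts stand behind a peak, in which tissue, is not known.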

Other observations

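Kinases known from mammals to phosphorylate myosin binding protein C were labelled in 4 of 8 cases, beside 57.0% of all protein-coding genes with a symbol. RPS6KA1 and RPS6KA3, ribosomal S6 kinases, had 5 promoter peaks each, spread over 11205 and 23047 bp. PRKCE and PRKD1, of the protein kinase C and D families, had 2 each. CAMK2B, CAMK2D, PRKACA and PRKACB, the last pair catalytic subunits of protein kinase A, had no label under these symbols. None of the 4 labelled kinases had more same-strand than opposite-strand peaks downstream, beside 44.8% of all labelled genes. Fewer were found for 2, beside 43.5% of all, and the others had equal counts. Same-strand and opposite-strand counts were 0 and 1 for PRKCE and 2 and 3 for RPS6KA1. They were 0 and 0 for RPS6KA3 and 2 and 2 for PRKD1, so the windows held few peaks.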
